A study of Mus musculus with 8 samples.

Results

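Genes that sense DNA damage and repair it were followed in irradiated and unirradiated mouse small intestinal organoids. The set was a list of 36 mouse gene symbols, matched by name to the 55416 Ensembl genes of the count table, in which Mre11a and H2afx are also known as Mre11 and H2ax. All 36 were found and all 36 passed the filter on low counts, which left 14063 genes for testing. They were read in 6 classes: 17 genes of homologous recombination and the Fanconi pathway, 8 of break sensing and signalling, 5 of end joining, 4 of excision repair, 1 of translesion synthesis and 1 of mismatch repair.

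Organoids, which are closed epithelial cultures that grow in a gel, came from intestinal cells of C57BL/6 mice aged 4 to 8 weeks and were grown in Intesticult medium. The mice of all 4 groups carried Rosa26-rtTA Tg/Tg, a doxycycline-dependent activator, together with Col1A1-TetO-OSKM Tg/Tg, a cassette of reprogramming factors under its control, and the labels do not state that the cassette was switched on. The 4 groups were control organoids of day 4 and of day 7 and irradiated organoids (6 Gy of X-rays) of day 4 and of day 7, with 2 libraries each. The starting point of the day count is not stated, nor whether the 2 libraries of a group came from separate cultures or animals, so the p-values measure only the spread between these libraries, which may be technical.

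X-rays can break both strands of DNA. Breaks are found by the Mre11-Rad50-Nbn complex and signalled by the kinases Atm and Atr, after which they are either joined end to end by the Ku proteins, Prkdc, Xrcc4 and Lig4 in any phase of the cell cycle, or copied from the sister chromatid by homologous recombination, which needs a replicated chromosome. The Fanconi proteins repair crosslinks and protect stalled forks, excision and mismatch repair replace damaged or mispaired bases, and many recombination genes are transcribed mainly in cells that replicate their DNA. In the intestine such cells lie in the crypt and mature enterocytes no longer divide.

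The libraries held 7541764 to 16054269 counts. The spread between libraries of a group beyond counting error, as the biological coefficient of variation, was 0.136 (control) and 0.173 (irradiated) for day 4 and 0.0470 and 0.0410 for day 7. Mitochondrial transcripts took 12.9% to 20.7% of the counts in 7 libraries and 27.6% in replicate 2 of the irradiated organoids at day 4. All 8 epithelial markers were detected in every library, with a summed level of 3917 to 6875 CPM. Summed markers of immune cells reached 4.43 to 6.98 CPM in 6 libraries and 10.8 and 12.3 CPM in the irradiated pair of day 4, where Csf1r, Lyz2 and Itgam, 3 of the 4 immune markers tested, rose (by 4.39, 3.50 and 1.01), while the pan-leukocyte marker Ptprc was at 0 to 0.241 CPM and Adgre1 at 0 in all 8 libraries. The sums of mesenchymal and endothelial markers reached at most 3.54 and 5.33 CPM in any library. Levels are given as CPM (counts relative to a common library size, after TMM scaling) and differences as log2 fold changes with their standard error (SE). The number of counts behind a level ran from 10 for Rmi2 to 2747 for Parp1 in a single library. A gene was called when its p from the edgeR quasi-likelihood test, adjusted by the Benjamini-Hochberg method over the 14063 genes, was under 0.05.

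At day 4, irradiated organoids held less RNA of most of the recombination and signalling genes, while 2 genes of other classes were higher. Of the 36 genes, 22 fell, 2 rose (Ercc5 and Polk) and 12 did not pass the test. Of all tested genes, 16.5% were called lower and 20.0% higher in the same comparison, 36.5% in either direction. The median log2 fold change of the 36 genes was -0.57, against 0.00 for all tested genes. In bulk RNA, fewer cells that express a gene and less RNA per cell cannot be told apart.

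**Figure D1:**
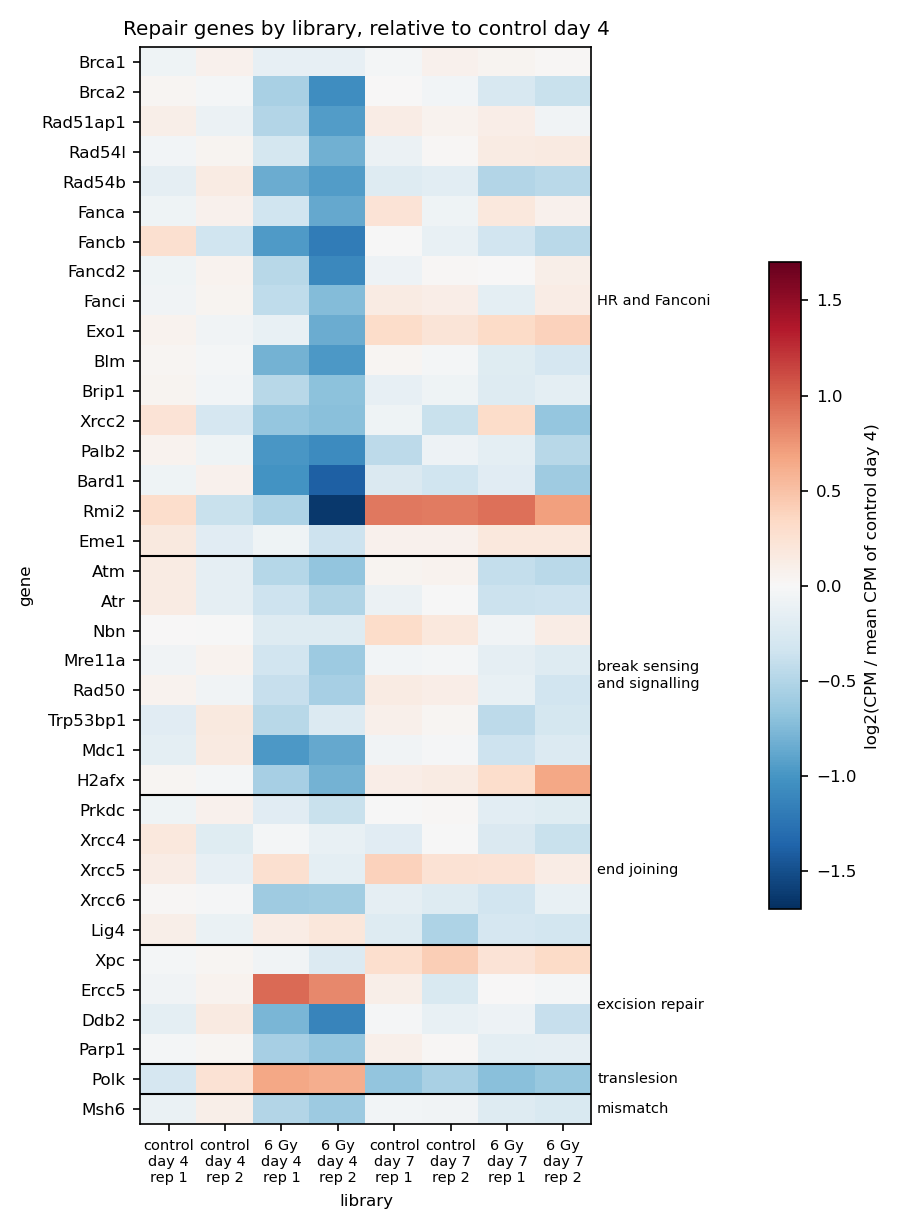
Each square is the log2 of the CPM of 1 gene in 1 library relative to the mean of the 2 control libraries at day 4, with genes in rows ordered by class, libraries in columns ordered by group, and the colour scale running from lower to higher. Most squares of the 17 recombination and Fanconi genes are below the control mean in both irradiated libraries at day 4, while Ercc5 and Polk are above it there.

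**Figure D2:**
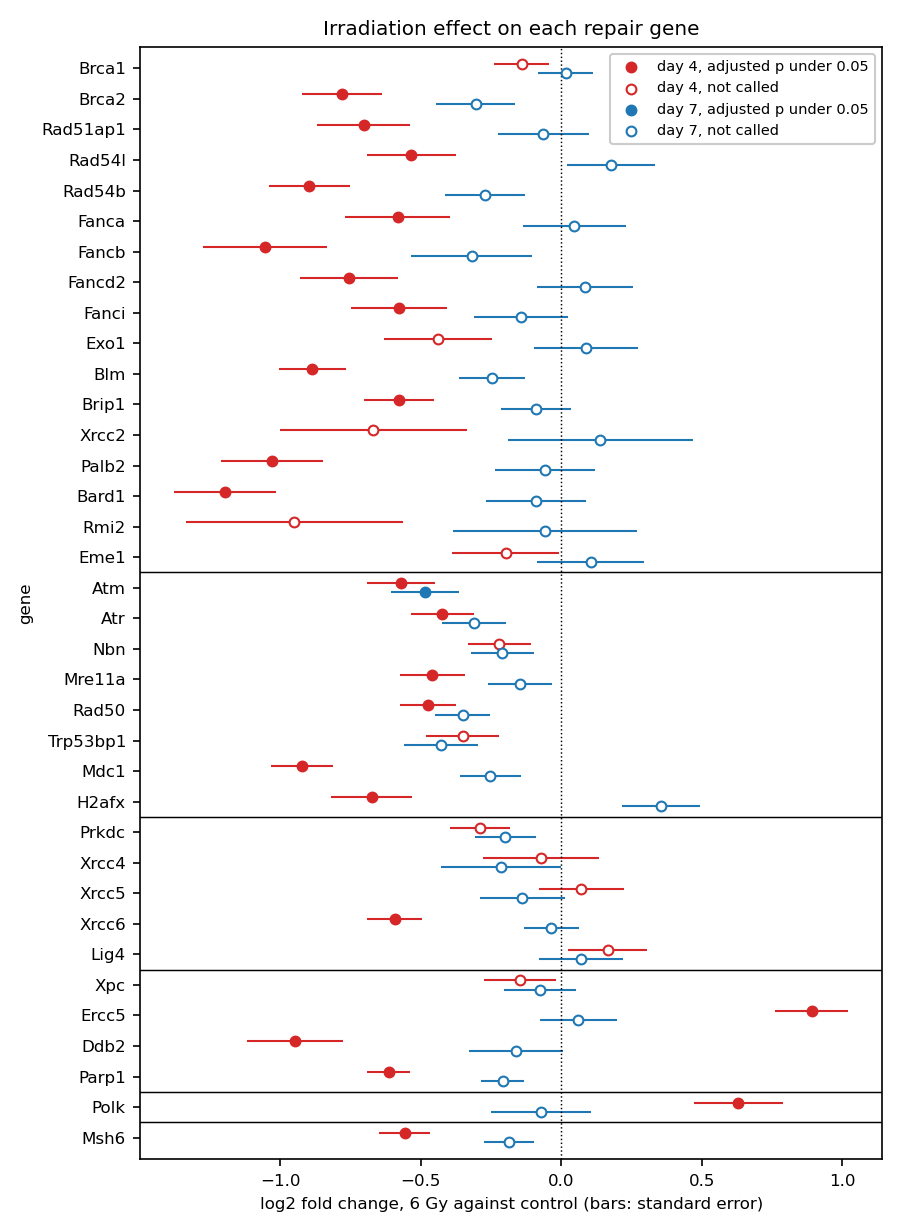
Points are the log2 fold changes of irradiated against control organoids for each of the 36 genes at day 4 and day 7, with SE as bars and filled points for adjusted p under 0.05. The day 4 points of recombination and Fanconi genes run from -1.20 to -0.14 and those at day 7 from -0.32 to 0.18.

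The recombination and Fanconi genes were lower in irradiated organoids at day 4, from the partners of Brca1 to the Fanconi pair and the helicases. All 17 log2 fold changes were negative, from -1.20 to -0.14 with a median of -0.70, and 12 of the 17 genes fell. In 16 of the 17 both irradiated libraries lay below both control libraries, a pattern seen in 31.8% of all tested genes. Summed over the class, the level was 383 and 377 CPM in controls and 272 and 216 CPM after irradiation, and replicate 2 of the irradiated libraries, the one with the highest mitochondrial share, was the lower. With replicate 2 left out, the median of the class was -0.50, and with replicate 1 left out it was -0.96.

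The most negative value of the class belonged to Bard1, the partner with which Brca1 forms a ubiquitin ligase. Its level was 19.3 and 21.3 CPM in controls at day 4 and 9.9996 and 7.73 CPM after irradiation. At day 7 it was 17.2 and 16.1 CPM in controls and 17.8 and 13.4 CPM after irradiation. The groups were apart at day 4 and overlapped at day 7, and the fall at day 4 was -1.20 (SE 0.18, adjusted p = 7.01e-04). Brca1 itself stood at 45.2 and 50.04 CPM in controls and 43.2 and 43.2 CPM after irradiation at day 4, a difference of -0.14 (SE 0.10, adjusted p = 0.294) that did not pass the test. The ratio of the TPM of Bard1 to that of Brca1, a pair picked after the values were seen, was 0.307 to 0.413 in the 4 control libraries, and after irradiation 0.249 and 0.156 at day 4 and 0.406 and 0.301 at day 7. Both irradiated libraries at day 4 lay below all others in this ratio. The ratio of Palb2 to Brca1, at 0.330 to 0.627 in controls and 0.470 and 0.270 after irradiation at day 4, overlapped between the groups.

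Palb2, which bridges Brca1 and Brca2, held 16.8 and 15.3 CPM in controls at day 4 and 8.06 and 7.62 CPM after irradiation. Brca2, which acts on resected ends, held 52.3 and 49.9 CPM in controls and 34.8 and 24.6 CPM after irradiation. Neither gene's groups overlapped, and both fell, by 1.03 (SE 0.18, adjusted p = 0.00167) for Palb2 and by 0.78 (SE 0.14, adjusted p = 0.00206) for Brca2 on the log2 scale.

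Among the genes that act in strand exchange, Rad51ap1, which stimulates strand pairing, went from 20.9 and 18.2 CPM to 13.8 and 10.1 CPM, a fall of 0.70 (SE 0.17, adjusted p = 0.00798). The translocase Rad54b went from 20.6 and 25.2 CPM to 12.8 and 11.9 CPM, a fall of 0.90 (SE 0.14, adjusted p = 9.19e-04). Its relative Rad54l went from 25.3 and 26.9 CPM to 21.3 and 14.8 CPM, a fall of 0.53 (SE 0.16, adjusted p = 0.0238). In all 3 the irradiated libraries were below the controls, but Rad54l lost its call without replicate 2 of either group. Rad54b shares 35.8% of its exon bases with Fsbp on the same strand and Rad54l 15.4% with Lrrc41 on the opposite strand, and the sources used here do not say how the counting treated strands, so reads may be shared between these genes. Xrcc2, which acts in the same step, was at 7.16 and 4.998 CPM in controls and 3.87 and 3.70 CPM after irradiation, a difference of -0.67 (SE 0.33, adjusted p = 0.144) that did not pass the test at this low level.

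In the Fanconi pathway, a core complex that includes Fanca and Fancb marks the pair of Fancd2 and Fanci with ubiquitin. Fancb went from 16.7 and 11.0 CPM in controls to 7.10 and 6.10 CPM after irradiation at day 4, a fall of 1.06 (SE 0.22, adjusted p = 0.00422). Fancd2 went from 25.1 and 27.6 CPM to 18.9 and 12.3 CPM, a fall of 0.76 (SE 0.18, adjusted p = 0.00728). The controls differed between themselves for Fancb and the irradiated libraries did so for Fancd2, yet the groups did not overlap for either. Fanca fell by 0.58 (SE 0.19, adjusted p = 0.0328) and Fanci by 0.58 (SE 0.17, adjusted p = 0.0230), and both calls were lost without control replicate 2 and without irradiated replicate 2 at day 4. That of Fanca was also lost without either irradiated library of day 7. Fanca shares 10.5% of its exon bases with Zfp276 and Fanci 16% with Polg, both on the opposite strand.

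Helicases and nucleases of the pathway complete the class. Blm, the helicase that unwinds recombination intermediates, went from 32.3 and 31.0 CPM to 18.2 and 16.0 CPM, a fall of 0.89 (SE 0.12, adjusted p = 3.33e-04). Brip1, a helicase that binds Brca1, went from 28.03 and 26.1 CPM to 19.5 and 16.8 CPM, a fall of 0.58 (SE 0.12, adjusted p = 0.00491). For both genes the libraries within a group lay close together compared with the gap between groups. Exo1, a nuclease that resects ends, differed by -0.44 (SE 0.19, adjusted p = 0.102) and Eme1, a subunit of the Mus81 nuclease, by -0.20 (SE 0.19, adjusted p = 0.454). Eme1 shares 8% of its exon bases with Lrrc59 and 2.72% with Mrpl27, both on the opposite strand and at a mean of 103 and 31 TPM, against 6.19 TPM for Eme1. Rmi2, a subunit of the complex of Blm, held 4.18 and 2.62 CPM in controls and 2.37 and 1.09 CPM after irradiation, a difference of -0.95 (SE 0.39, adjusted p = 0.0785). Exo1, Eme1 and Rmi2 were not called at day 4, and Eme1 was the member of the class whose groups overlapped. Of the 12 falls of the class, those of Rad54l, Fanca and Fanci were not called by DESeq2 or in the fit of only the day 4 libraries, and those of Rad51ap1, Rad54l, Fanci, Brip1 and Palb2 were not called in the fits of TPM values.

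Promoter sequences of 25 of the 36 genes were found in RefSeq (GRCm38.p6, 28 promoters of 300 bases, from 250 bases before the start of transcription to 50 after it). They were searched on both strands for letters bound by E2F factors (TTTGGCGC, TTTCGCGC or GGCGGGAA), for the cell cycle homology region TTTGAA, for the CCAAT box (CCAAT) and for the p53 half-site. Each motif was searched on its own, so matches of different motifs may overlap, and a match describes letters and not a bound site. The E2F letters were in 4 of the 28 promoters (14.3%), against 2.96% of 32851 mouse promoters of the same length. CCAAT was in 57.1%, against 37.4% of all, and in 69.2% of the 13 promoters of recombination and Fanconi genes. The cell cycle homology region was in 10.7%, against 17.9% of all, and the p53 half-site in 10.7%, against 8.36%. The 4 promoters with the E2F letters belong to Fancb (chrX:164980342-164980621, plus strand), Rad51ap1 (chr6:126939558-126939837, minus strand), Mdc1 (chr17:35841248-35841527, plus strand) and Msh6 (chr17:87974800-87975079, plus strand), all 4 of which fell at day 4, as did 13 of the 21 genes whose promoters lack the letters. Their promoters are shown so that the position of the match can be seen, 5′ to 3′ along the gene's strand, with the match in capitals, over 280 bases that end 30 bases after the start. Counted from the start, the match begins at -173 in Fancb, at 11 in Rad51ap1, at -15 in Mdc1 and at 16 in Msh6.
Fancb: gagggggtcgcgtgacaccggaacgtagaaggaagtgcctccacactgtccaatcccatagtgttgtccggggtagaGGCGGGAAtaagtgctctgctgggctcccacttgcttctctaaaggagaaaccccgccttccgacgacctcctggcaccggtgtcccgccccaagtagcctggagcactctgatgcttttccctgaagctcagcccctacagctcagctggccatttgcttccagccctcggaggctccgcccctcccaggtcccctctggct
Rad51ap1: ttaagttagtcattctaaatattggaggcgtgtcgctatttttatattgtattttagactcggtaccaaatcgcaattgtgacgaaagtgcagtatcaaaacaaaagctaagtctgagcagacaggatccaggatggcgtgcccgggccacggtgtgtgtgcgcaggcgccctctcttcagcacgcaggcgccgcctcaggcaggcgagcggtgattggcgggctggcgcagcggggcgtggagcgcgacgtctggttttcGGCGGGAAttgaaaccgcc
Mdc1: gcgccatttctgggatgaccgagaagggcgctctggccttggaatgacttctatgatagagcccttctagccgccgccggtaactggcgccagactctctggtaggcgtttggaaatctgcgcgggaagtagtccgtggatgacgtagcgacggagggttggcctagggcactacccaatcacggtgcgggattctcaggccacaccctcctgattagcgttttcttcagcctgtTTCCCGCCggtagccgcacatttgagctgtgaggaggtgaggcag
Msh6: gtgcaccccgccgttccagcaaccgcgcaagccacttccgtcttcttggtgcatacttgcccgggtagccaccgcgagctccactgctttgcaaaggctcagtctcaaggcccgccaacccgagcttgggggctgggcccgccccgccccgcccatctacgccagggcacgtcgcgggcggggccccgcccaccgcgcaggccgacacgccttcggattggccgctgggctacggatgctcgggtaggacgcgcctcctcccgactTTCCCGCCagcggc

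The 8 genes of break sensing and signalling were also lower after irradiation at day 4. All 8 log2 fold changes were negative, with a median of -0.47. Both irradiated libraries lay below both controls in each of the 8, a pattern seen in 31.8% of all tested genes. The test called 6 of them lower (75%), against 16.5% of all tested genes. The most negative value was that of Mdc1, the scaffold that binds phosphorylated H2AX beside a break: 94.4 and 117 CPM in controls and 53.8 and 58.0 CPM after irradiation, a fall of 0.92 (SE 0.11, adjusted p = 1.68e-04). H2afx, which encodes that histone variant, went from 28.6 and 27.6 CPM to 19.0 and 16.1 CPM, a fall of 0.68 (SE 0.15, adjusted p = 0.00489). Both genes were lower in each irradiated library than in either control, and 10.2% of the exon bases of H2afx are shared with Gm44335 on the opposite strand.

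The kinase Atm, which responds to breaks, went from 56.2 and 45.8 CPM in controls to 36.5 and 32.1 CPM after irradiation at day 4, a fall of 0.57 (SE 0.12, adjusted p = 0.00447). Atr, the kinase that responds to single-stranded DNA, went from 69.3 and 56.9 CPM to 49.6 and 44.3 CPM, a fall of 0.42 (SE 0.11, adjusted p = 0.0144). Atr lost its call without control replicate 1, without irradiated replicate 2 of day 4, in the fit of only the day 4 libraries and in the fits of TPM values. Of the end-binding complex, Rad50 went from 84.6 and 78.3 CPM to 62.3 and 55.0 CPM, a fall of 0.47 (SE 0.10, adjusted p = 0.00434). Its nuclease Mre11a fell by 0.46 (SE 0.11, adjusted p = 0.0105), a call lost without control replicate 2 at day 4 and in the fit of only the day 4 libraries, and the difference of its partner Nbn was -0.22 (SE 0.11, adjusted p = 0.149). Trp53bp1, which directs breaks towards end joining, differed by -0.35 (SE 0.13, adjusted p = 0.0565) and shares 15% of its exon bases with Tubgcp4 on the opposite strand. Nbn and Trp53bp1 were the 2 genes of the class that did not pass.

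Of the 5 end joining genes, 1 fell and 4 did not pass the test at day 4. The share that fell, 20%, was near the 16.5% of all tested genes called lower. Xrcc6, which encodes the Ku70 subunit of the ring that grips a broken end, went from 59.9 and 58.5 CPM to 39.0 and 39.4 CPM, a fall of 0.59 (SE 0.10, adjusted p = 0.00112). Xrcc5, which encodes its partner Ku80, was at 39.5 and 32.8 CPM in controls and 43.5 and 32.2 CPM after irradiation, a difference of 0.07 (SE 0.15, adjusted p = 0.746). The Xrcc6 libraries were far apart between groups and those of Xrcc5 overlapped. The ratio of the TPM of Xrcc6 to that of Xrcc5 was 2.57 and 2.97 in controls at day 4 and 1.48 and 1.98 after irradiation, but 1.64 and 1.93 in controls at day 7, so that the irradiated libraries of day 4 overlapped the controls of day 7. Xrcc6 shares 7.69% of its exon bases with Desi1 on the opposite strand. The kinase Prkdc, which the Ku ring recruits, differed by -0.29 (SE 0.11, adjusted p = 0.0570). The ligase Lig4 and its cofactor Xrcc4 differed by 0.16 (SE 0.14, adjusted p = 0.397) and -0.07 (SE 0.21, adjusted p = 0.810).

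The excision repair genes moved in both directions at day 4. Ercc5, the nuclease that makes the 3′ incision of nucleotide excision repair, held 27.7 and 30.2 CPM in controls, 56.6 and 51.1 CPM in irradiated organoids, and 24.3 to 31.0 CPM in the 4 libraries of day 7. Among the 8 libraries it was high in the 2 irradiated ones of day 4 and in no other, a rise of 0.89 (SE 0.13, adjusted p = 5.50e-04). The damage detector Ddb2 went the other way, from 23.1 and 28.7 CPM to 15.1 and 11.9 CPM, a fall of 0.95 (SE 0.17, adjusted p = 0.00187). Ddb2 shares 23.8% of its exon bases with Acp2 on the opposite strand. Xpc, the other detector of nucleotide damage, held 18.7 and 19.6 CPM in controls and 18.4 and 16.2 CPM after irradiation, a difference of -0.15 (SE 0.13, adjusted p = 0.410). The ratio of the TPM of Ercc5 to that of Xpc, a pair picked after the values were seen, was 1.15 to 1.54 in the 4 controls, and after irradiation 3.62 and 3.22 at day 4 and 1.73 and 1.12 at day 7. Parp1, which senses nicks and had the highest TPM of the 36 genes, went from 159.6 and 167 CPM to 110.2 and 103 CPM, a fall of 0.61 (SE 0.08, adjusted p = 2.23e-04).

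Polk, a polymerase that copies past damaged bases, held 20.2 and 29.1 CPM in controls at day 4 and 39.0 and 37.8 CPM after irradiation. At day 7 it was lower in all 4 libraries, with 15.6 and 16.8 CPM in controls and 15.1 and 15.8 CPM after irradiation. The rise at day 4 was 0.63 (SE 0.16, adjusted p = 0.0111), and the 2 controls of day 4 differed more between themselves than the irradiated libraries did. In the fits of TPM values neither Ercc5 nor Polk kept its call at day 4. Msh6, which recognises single mispaired bases, went from 111 and 128 CPM to 84.5 and 78.4 CPM, a fall of 0.56 (SE 0.09, adjusted p = 0.00101).

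**Figure D3:**
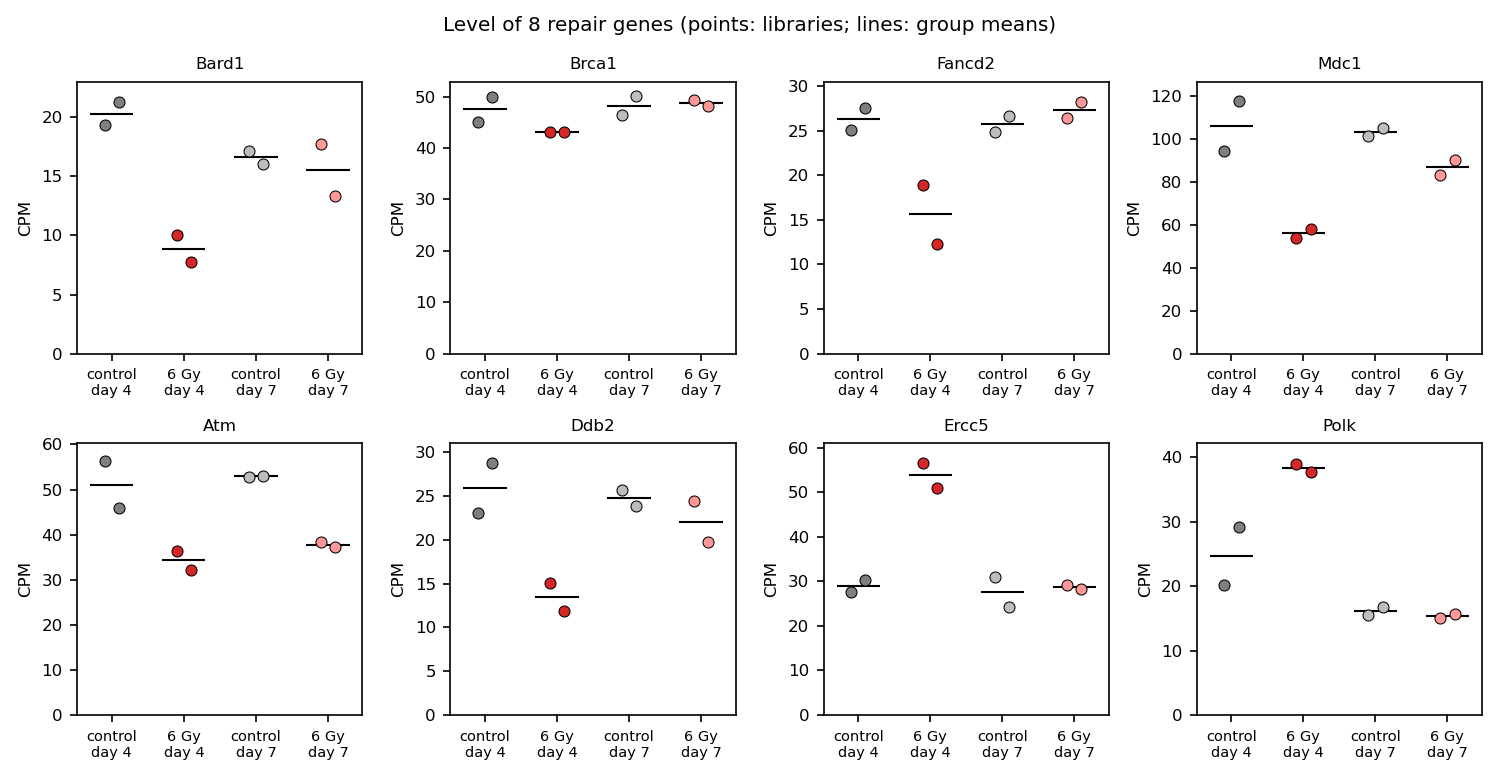
Each panel shows 1 gene, with the CPM of the 8 libraries as points by group on an axis that starts at 0 and a line at the mean of the group. Bard1 and Mdc1 are low at day 4 after irradiation and Ercc5 is high there, while Brca1 lies between 43.2 and 50.1 CPM in all libraries.

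Set side by side, the recombination and Fanconi class had a median log2 fold change of -0.70 at day 4 with 12 of 17 genes lower and none higher, and the 19 genes of the other classes had a median of -0.42 with 10 lower and 2 higher. These other classes were unlike each other. Break sensing and signalling had 75% of its genes lower, against 70.6% of the recombination and Fanconi class, with a median of -0.47. End joining had 20% lower and a median of -0.07, and 16.5% of all tested genes were lower. The summed level of the first class in the 2 irradiated libraries at day 4 was 71.6% and 56.9% of the control mean, and that of the other classes was 79.0% and 73.7%. In log2(TPM + 1) the medians were -0.67 and -0.57 while all genes had a median of -0.17, a narrower gap between the classes, and with a pseudocount of 0.1 they were -0.89 and -0.60. The classes were not compared by a test, because the genes of a class are not replicates.

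Levels of the cell cycle machinery moved in the same libraries. Among 24 DNA replication genes 17 fell and none rose at day 4, their median being -0.51, with a summed level at 80.0% and 63.9% of the control mean. Among 20 mitosis genes 19 fell, and their median was -0.82, with a summed level at 58.4% and 46.9%. Mki67, a marker of dividing cells, fell by 1.14 (SE 0.09, adjusted p = 1.54e-05). The 12 enterocyte markers all rose, and their summed level went from 3615 and 3289 CPM to 11904 and 19412 CPM. Of 20 targets of p53 outside repair, 17 rose and none fell, with a median of 0.92, among them Phlda3 by 1.57 (SE 0.26, adjusted p = 0.00122) and Bax by 0.95 (SE 0.16, adjusted p = 0.00126). Replicate 2 of the irradiated organoids at day 4, which had the lower sum of recombination genes, also had the lower sums of replication and mitosis genes and the higher sum of enterocyte markers. The part of cell division, of enterocyte content, of the immune markers given above and of the mitochondrial share in the levels of the repair genes was not tested.

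**Figure D4:**
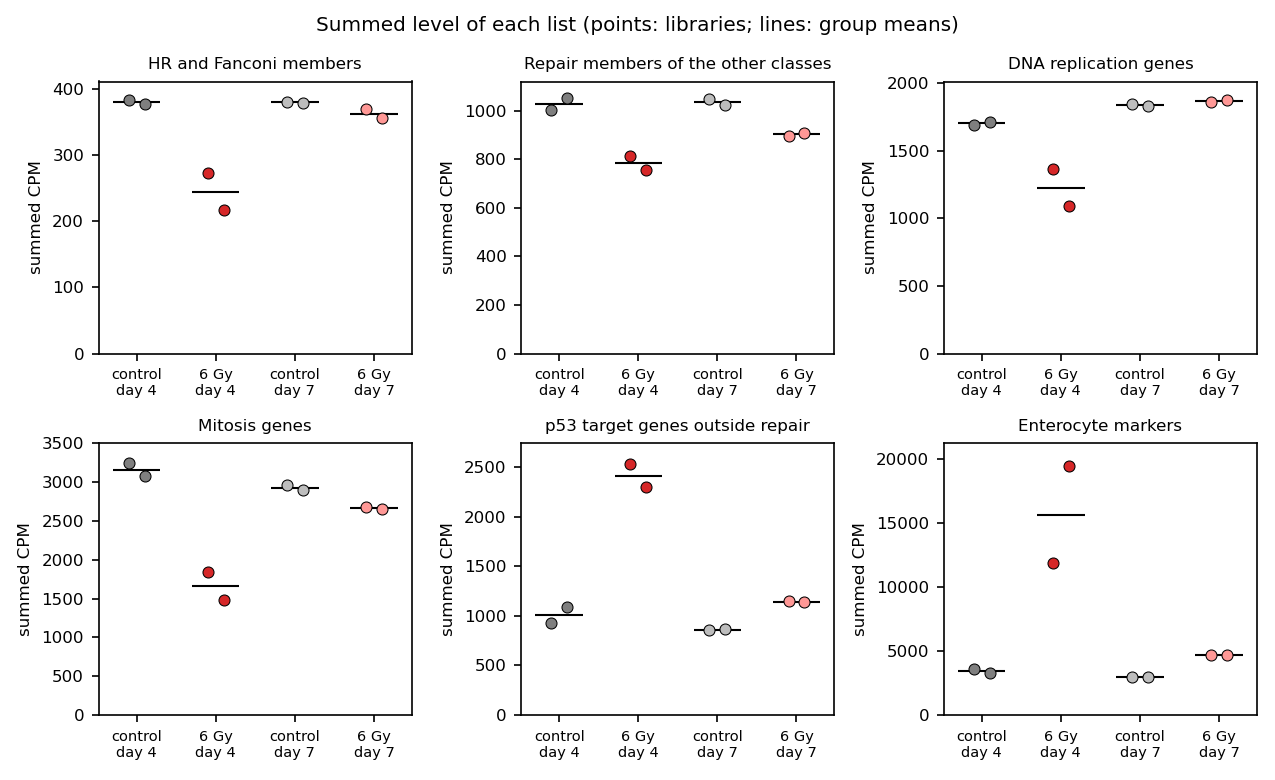
Each panel shows the summed CPM of 1 gene list on an axis that starts at 0, with 1 point per library by group and a line at the group mean. The recombination and Fanconi sum after irradiation is 272 and 216 CPM at day 4 and 369 and 356 CPM at day 7, and the sums of replication and mitosis genes are low, and those of p53 targets and enterocyte markers high, in the same irradiated libraries of day 4.

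Other repair genes, taken from lists of the same pathways, are read here against the 16.5% of all tested genes called lower and the 20.0% called higher at day 4. Of 34 other recombination and Fanconi genes, 10 fell (29.4%) and none rose, with a median of -0.41. Among them Ube2t, which attaches ubiquitin to Fancd2 and Fanci, went from a mean of 12.3 to 5.84 CPM, a fall of 1.08 (SE 0.20, adjusted p = 0.00201), and the end-resecting nuclease Dna2 fell by 0.52 (SE 0.11, adjusted p = 0.00537). Of 13 other end joining genes 2 fell (Polq and Aplf, 15.4%) and 1 rose (7.69%), shares near or below those of all genes, with a median of -0.13. The riser was Aptx, which repairs stalled ligation ends, at 0.91 (SE 0.21, adjusted p = 0.00750). Of 24 other sensing and checkpoint genes 11 fell (45.8%) and none rose, with a median of -0.38. The checkpoint kinases Chek1 and Chek2 fell by 0.65 (SE 0.17, adjusted p = 0.0139) and 0.63 (SE 0.13, adjusted p = 0.00332).

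Of 36 other excision repair genes, with a median of -0.16, 6 rose (16.7%) and 5 fell (13.9%), shares below those of all genes. The risers included Gtf2h1, a subunit of the helicase complex TFIIH, at 0.42 (SE 0.09, adjusted p = 0.00600), Ddb1, the partner of Ddb2, at 0.29 (SE 0.08, adjusted p = 0.0187) and Xpa, a damage verifier, at 0.69 (SE 0.21, adjusted p = 0.0280). Parp2 and the glycosylases Nthl1 and Mbd4 were among those that fell. All 6 other mismatch repair genes had negative values and 3 fell, among them Pms1 by 0.94 (SE 0.15, adjusted p = 0.001001) and Msh3 by 0.47 (SE 0.10, adjusted p = 0.00558). Of 10 other translesion genes 5 fell, among them Primpol and Poli, and Rev1, the scaffold for the bypass polymerases, rose by 0.60 (SE 0.13, adjusted p = 0.00545). Polh, another bypass polymerase, differed by -0.64 (SE 0.25, adjusted p = 0.0739) and was not called.

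At day 7 the edgeR test called 1 of the 36 genes, Atm, which was lower in irradiated organoids, where 8.65% of all tested genes were called (4.70% higher and 3.95% lower). None of the 17 recombination and Fanconi genes was called by edgeR, DESeq2 or limma-voom. None had an unadjusted p under 0.05 in edgeR, where 3637 of the 14063 tested genes had one. Each of these tests pooled the spread over the 4 groups, and that spread was larger at day 4. The fit of only the day 7 libraries, given below, called Brca2 and Blm lower. The median log2 fold change of the 17 genes was -0.06. Their summed level was 97.1% and 93.5% of the control mean of day 4, compared with 99.9% and 99.7% in the controls of day 7. The 19 genes of the other classes had a median of -0.19. Their sum was 87.2% and 88.4% after irradiation, compared with 101.9% and 99.7% in the controls of day 7. Fancd2 had 24.9 and 26.7 CPM in controls and 26.4 and 28.3 CPM after irradiation, and Palb2 11.8 and 15.1 CPM against 14.3 and 11.6 CPM. The groups of both genes overlapped at day 7. In Brca2, Rad54b, Fancb, Blm and Brip1 both irradiated libraries were below both controls, 5 of 17 where 32.6% of all tested genes show this, with differences of -0.32 to -0.09 that did not pass the test.

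Atm stood at 52.8 and 52.97 CPM in controls at day 7 and at 38.4 and 37.2 CPM after irradiation, a fall of 0.49 (SE 0.12, adjusted p = 0.0367). The 2 libraries of each group nearly coincided, yet the call was lost by DESeq2 and limma-voom, on the TPM scale, and without any 1 of the 4 libraries of day 7. Rad50 was at 90.1 and 88.3 CPM against 74.5 and 65.1 CPM, a difference of -0.35 (SE 0.10, adjusted p = 0.0547), and Trp53bp1 at 70.2 and 68.0 CPM against 48.7 and 54.0 CPM, a difference of -0.43 (SE 0.13, adjusted p = 0.0700). All sensing genes but H2afx were lower without overlap at day 7, 7 of 8, against 32.6% of all tested genes. In edgeR 6 of the 8 had an unadjusted p under 0.05, against 3637 of the 14063 tested genes. The median of the class was -0.28. H2afx, the exception, was at 30.5 and 30.9 CPM in controls and 34.5 and 44.2 CPM after irradiation, a difference of 0.35 (SE 0.14, adjusted p = 0.140). Fitting only the day 7 libraries called 10 of the 36 genes: Atm, Atr, Rad50, Trp53bp1, Mdc1, Brca2, Blm, Parp1 and Msh6 lower and H2afx higher. That fit called 36.3% of all genes it tested, so the share of the 36 genes called in either direction was not above that of all genes. By direction it called 18.8% of all genes higher and 17.5% lower. It called 2 of the 17 recombination and Fanconi genes lower, and 7 of the 19 genes of the other classes. The latter is a larger share than that of all genes, a difference that was not tested. Of the 20 mitosis genes 2 fell and 18 were not called at day 7, with a median of 0.02. Mki67 was lower at day 7, by 0.36 (SE 0.09, adjusted p = 0.0369), whereas none of the 24 replication genes was called by edgeR and none had an unadjusted p under 0.05. Of the 20 p53 targets outside repair 8 were called higher at day 7 (40%), with a median of 0.38. Of the 12 enterocyte markers 5 were called higher (41.7%), with a median of 0.89, against 4.70% of all tested genes. None of either list was called lower.

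Whether the irradiation effect differed between the days was tested as the effect at day 7 less the effect at day 4. Among the 36 genes 8 were called, 7 with a positive and 1 with a negative difference, where 10.1% of all tested genes were called (4.60% positive and 5.51% negative). Of the recombination and Fanconi genes 3 were called, Bard1 at 1.11 (SE 0.25, adjusted p = 0.0239), Palb2 at 0.97 (SE 0.25, adjusted p = 0.0381) and Blm at 0.64 (SE 0.17, adjusted p = 0.0371). All 17 differences of that class were positive, with a median of 0.64, and 11 had an unadjusted p under 0.05 in edgeR. Of all 14063 tested genes 3852 had such a p. Of the other classes, H2afx at 1.03 (SE 0.20, adjusted p = 0.0131), Mdc1 at 0.67 (SE 0.15, adjusted p = 0.0243), Xrcc6 at 0.56 (SE 0.14, adjusted p = 0.0317) and Parp1 at 0.41 (SE 0.11, adjusted p = 0.0413) were positive, and Ercc5 at -0.83 (SE 0.19, adjusted p = 0.0229) was negative.

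None of the 8 calls was kept in every fit that left out 1 library, which leaves 1 library in a group. Without any library of day 7, calls became fewer among the 36 genes and among all tested genes. That loss was therefore not particular to the 36 genes. Without a library of day 4, calls of the 36 genes became more or fewer, depending on the library left out. Atm differed between the days by 0.09 (SE 0.17, adjusted p = 0.794), Atr by 0.11 (SE 0.16, adjusted p = 0.699) and Rad50 by 0.12 (SE 0.14, adjusted p = 0.623), so for these 3 sensing genes no difference between the days was called. Of 20 mitosis genes 17 were called positive in the same comparison and of 24 replication genes 6.

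Without irradiation the 36 genes were not called between the days. In control organoids at day 7 against day 4 the edgeR test called 0 of the 36, and DESeq2 and limma-voom called 0. In edgeR 2.72% of all tested genes were called (1.25% higher and 1.46% lower). An unadjusted p under 0.05 in edgeR was held by 5 of the 36 and by 2520 of the 14063 tested genes. The median was -0.02 for the recombination and Fanconi genes and -0.04 for the others.

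In irradiated organoids, day 7 against day 4, 20 of the 36 genes rose and 3 fell, where 14.7% of all tested genes were called higher and 18.3% lower (33.0% in all). This comparison shares the irradiated libraries of day 4 with the comparison against controls at that day. Of the 17 recombination and Fanconi genes 13 rose and none fell, with a median of 0.68, and Brca1, Rad54b, Xrcc2 and Eme1 were not called. Rmi2 went from 2.37 and 1.09 CPM to 6.53 and 5.53 CPM, a rise of 1.80 (SE 0.38, adjusted p = 0.00567), and H2afx from 19.0 and 16.1 CPM to 34.5 and 44.2 CPM, a rise of 1.16 (SE 0.15, adjusted p = 4.57e-04). The libraries of Rmi2 and H2afx did not overlap between the days. Between the same days without irradiation, the recombination and Fanconi genes differed by -0.29 to 0.91, and none was called. The irradiation by day difference was called for H2afx and not for Rmi2, so the rise of Rmi2 was not set apart from the control course. The genes that fell were Polk, by 1.32 (SE 0.17, adjusted p = 5.17e-04), Ercc5, by 0.90 (SE 0.13, adjusted p = 9.32e-04), and Lig4, by 0.46 (SE 0.15, adjusted p = 0.0362). In control organoids over the same days Polk differed by -0.61 (SE 0.17, adjusted p = 0.0851) and Lig4 by -0.36 (SE 0.14, adjusted p = 0.218), and the irradiation by day difference was not called for Polk (-0.70, adjusted p = 0.0881) or Lig4 (-0.09, adjusted p = 0.814). With all libraries 23 of the genes were called. Fewer were called without irradiated replicate 2 of day 4 or without either irradiated replicate of day 7, and Lig4 was lost each time. Calls over all tested genes also became fewer in the same fits. Of the sensing genes, Mdc1 and H2afx rose and Atm, at 0.14 (SE 0.12, adjusted p = 0.417), and Atr, at 0.07 (SE 0.12, adjusted p = 0.692), were not called.

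Levels of different genes were compared per length. The mean TPM over all 8 libraries, where TPM scales counts by gene length and library size, ran from 1.63 for Rmi2, 2.42 for Xrcc2 and 3.70 for Bard1 to 33.5 for Msh6, 46.0 for Xrcc6 and 53.3 for Parp1. Prkdc was low in this order at 4.22 TPM, next to Fanci at 4.15 TPM. The subunits of the end-binding complex lay close together, with Nbn at 18.9, Mre11a at 20.2 and Rad50 at 20.5 TPM. The low place of Rmi2 and Xrcc2 in this order goes with the wide SE of both genes in every comparison above.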

How the data were processed

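RNA of 8 libraries, made from poly-A selected RNA with a directional kit per the labels' protocols, was analysed from 2 tables. The authors deposited expected counts per Ensembl gene, which share ambiguous reads between genes and need not be whole, and TPM per gene, which scales counts by gene length and library size, per the file headers. The tools listed in the submitters' processing notes are RSEM 1.3.3, STAR 2.7.3a, FastQC and Trim Galore, with the builds mm10 and GRCm39 and no role for either. Neither the annotation nor the strandedness used in counting is given in the sources used here.

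Symbols came from GENCODE M21. Of the 36 genes, 21 had whole counts in all 8 libraries, within 0.001. Expected counts were rounded, which changed 11.4% of values, and filtered with filterByExpr (minimum count 10, minimum total 15). They were tested with edgeR 4.0.16 in R 4.3.3 (quasi-likelihood F-test, robust fitting, TMM scaling, 4 group means over 8 libraries, 4 residual degrees of freedom), two-sided, with Benjamini-Hochberg adjustment over 14063 genes and a threshold of 0.05. One count stood for 0.0623 to 0.133 CPM, which limits the lowest genes. Alternatives used DESeq2 1.42.0, limma 3.58.1 (voom on counts, trend on log2 TPM with a pseudocount of 1 or 0.1), other filters, a replicate block, libraries without mitochondrial genes, fits of only the groups compared, and fits that left out 1 library. A fold change on the log2(TPM + pseudocount) scale understates the change of low genes. The code was tested on simulated counts.

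Libraries with the same replicate number did not deviate together between groups (correlations of -0.036 to 0.058 across genes), and the labels do not say that a number marks a shared batch, so numbers were not taken as pairs. All 36 genes are named. Of the other repair and p53 lists, up to 3 called genes per direction with the smallest p at day 4 could be named, plus Chek1, Polh and Mki67 whatever their values. Some genes that this rule names are not reported here. The 36 genes, the lists, the tests and the alternatives were chosen with earlier results of these data known. Promoters came from RefSeq (GRCm38.p6) and exon overlaps from GENCODE M21, the release that also gave the symbols. Figures were drawn with matplotlib 3.10.9.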

Additional observations from a re-analysis of the deposited data

Results flagged for a closer look

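The irradiation effect differed between day 7 and day 4, by the test of the difference in edgeR, in 8 of the 36 genes. On the log2 scale the day 7 effect less the day 4 effect was 1.11 for Bard1, 1.03 for H2afx, 0.97 for Palb2, 0.67 for Mdc1, 0.64 for Blm, 0.56 for Xrcc6, 0.41 for Parp1 and -0.83 for Ercc5. Each of these calls was lost in at least 1 of the fits that left out a library, where calls over all tested genes also changed. The call of H2afx was kept in all other alternatives.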

How the results depend on the processing

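None of the results was counted as reversed, although medians in control organoids between days, given below, lay on both sides of 0. On the TPM scale the median of all genes shifted by -0.17 and -0.20 (pseudocounts of 1 and 0.1) at day 4, 0.12 and 0.13 at day 7, 0.26 and 0.30 in irradiation by day, and 0.30 and 0.34 in irradiated organoids between days, and medians below are to be read against it. At day 4, 12 recombination and Fanconi genes became 7 with either pseudocount and 9 with only the groups compared or DESeq2. The number also changed when 1 library was left out. With only the groups compared 24 calls of the 36 genes became 19. Calls over all tested genes went from 36.5% to 19.7% and 19.3% with pseudocounts of 1 and 0.1. They went to 27.1% with DESeq2 and to 23.3% with only the groups compared. The recombination and Fanconi median of -0.70 became -0.89 with 0.1 and ranged from -0.96 to -0.50 when 1 library was left out. That of the other classes (-0.42) became -0.57 and -0.60. At day 7, 0 recombination genes became 2 with only the groups compared, where calls over all genes went from 8.65% to 36.3%, and 0 to 1 when 1 library was left out. The 1 called gene of the other classes became 3 with no filter, 2 with the stricter filter and 0 with DESeq2, limma-voom or TPM. It became 8 with only the groups compared, 3 with the replicate block and 2 without mitochondrial genes, and changed when 1 library was left out. Apart from fits that left out 1 library, calls over all tested genes ran from 2.69% with TPM to 36.3% with only the groups compared, against 8.65%. The median of the other classes, -0.19, became -0.05 with either pseudocount. In irradiation by day, 3 recombination genes became 10 with no filter, 1 with DESeq2 and 0 with TPM, and 5 of the other classes became 3 with DESeq2 and 2 with TPM. Both numbers also changed when 1 library was left out. Calls over all tested genes went from 10.1% to 8.07% with no filter and 8.03% with DESeq2. With TPM they went to 2.14% and 2.35% (pseudocounts of 1 and 0.1). The medians of 0.64 and 0.09 became 0.79 and 0.38 with a pseudocount of 1, and 0.93 and 0.43 with 0.1, the first ranging from 0.44 to 0.85 when 1 library was left out. In control organoids between days, 0 called genes of the other classes became 1 with no filter, where calls over all tested genes went from 2.72% to 4%. This number also changed when 1 library was left out. The medians ran from -0.06 to 0.08. In irradiated organoids between days, 13 recombination genes became 8 with DESeq2 and 6 to 14 when 1 library was left out, and 10 of the other classes became 6 and 6 to 11. The medians of 0.68 and 0.25 became 0.87 and 0.61 with a pseudocount of 1, and 0.97 and 0.65 with 0.1, and ranged from 0.49 to 0.78 and from 0.14 to 0.35 when 1 library was left out. The cause of these changes was not tested. The replicate block, fitted although the numbers were not taken as pairs, added Trp53bp1 at day 4, Rad50 and Trp53bp1 at day 7 and Rad50 in irradiated organoids between days, and lost no call of the 36 genes. Irradiation by day needs all groups, so it has no fit of only the groups compared. At day 4, 19 of the 24 calls held in every fit that left out 1 library and 14 in every alternative. With 2 libraries a group, counts as low as 10 for Rmi2 and 32 for Xrcc2 limit these genes.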
